A study of Mus musculus with 6 samples.

Results

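Transcripts of 5 complement genes were followed in muscle stem cells: the components C3 and C4b, the secreted inhibitor Serping1, and the membrane-bound inhibitors Cd55 and Cd59a. They were taken by symbol from a table of 12067 genes, and all 5 had values in all 6 libraries. Muscle stem cells (satellite cells) rebuild muscle fibres after injury. They had been sorted from limb muscles of male C57BL/6 mice by surface antigens (VCAM present, with CD45, CD31 and Sca1 absent), stained with ThiolTracker Violet at 5 uM for reduced glutathione (GSH), and sorted again. The young group (4 months) kept all cells, nearly all of them GSH-high, with 1 animal in each of 2 libraries. The old animals (23 months) gave a GSH-high and a GSH-low fraction, each with 2 libraries of 2 pooled animals, so that no young GSH-low group stands beside the old one. The labels do not say whether the old fractions came from the same pools.

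Complement is a cascade of plasma and tissue proteins that tags cells and debris for clearance and can pierce membranes. The classical route starts when C1q binds a target and activates the proteases C1r and C1s, which cleave C4 and C2. All routes meet at C3, whose cleavage deposits C3b on surfaces, and the alternative route amplifies that step with factor B and factor D. Host cells hold the cascade back with inhibitors: C1 inhibitor blocks C1r and C1s, CD55 breaks up the convertases that cleave C3, and CD59 stops assembly of the membrane pore. Most plasma complement comes from the liver, and stromal cells and macrophages of other tissues also make components.

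The libraries held 47.0 to 68.79 M reads, as recovered from the deposited RPKM (reads corrected for the length of the gene and the depth of the library). Satellite cell markers were present in all libraries: the summed RPKM of 8 markers was 1324 to 1349 in young, 1372 to 1478 in old GSH-high and 1182 to 1222 in old GSH-low. Myod1 led that sum (means of 680.9, 817.9 and 612.0 RPKM), and single markers moved. Calcr averaged 43.4, 19.2 and 21.4 RPKM and Pax7 7.79, 8.37 and 11.9. Relative to young, 0 of 8 rose and 2 fell in old GSH-high, and 1 rose and 2 fell in old GSH-low. Markers of other cells moved between the groups. The sum of 9 tenocyte (tendon cell) markers was 36.0 to 38.4 RPKM in young, 642.2 to 812.0 in old GSH-high and 2676 to 3067 in old GSH-low. The sum of 12 markers of fibro-adipogenic progenitors (FAPs, the connective tissue cells of muscle) was 1128 to 1230, 1340 to 1378 and 1874 to 2007 RPKM in the same order. Gsn led that sum (means of 637.7, 758.2 and 902.6 RPKM). Of the macrophage markers, 5 of 11 had values and their sum was 6.0 to 8.41, 29.2 to 39.2 and 37.6 to 40.7 RPKM, led by Lyz2 (2.36 to 29.1 RPKM), while Adgre1, Csf1r, Mrc1, Fcgr1, Itgam and Cx3cr1 were not analysed here. The sum of 12 endothelial markers was 41.2 to 47.6, 91.6 to 93.3 and 22.5 to 27.8 RPKM. The part of these cells in the results that follow was not tested, and in sorted bulk RNA more cells of a type cannot be told apart from more RNA per cell.

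C3 and C4b were both low in young cells and high in both old fractions. C3 (chromosome 17, 57203970 to 57228136 on GRCm38, minus strand), the central component, was at 4.26 and 3.88 RPKM in the young libraries, 30.8 and 24.8 in old GSH-high, and 52.7 and 38.3 in old GSH-low. The young libraries lay far below all 4 old ones, and both GSH-low libraries lay above both GSH-high ones. Group means were 4.07 ± 0.271, 27.8 ± 4.26 and 45.5 ± 10.2 RPKM (SD, n = 2 each). On the fitted scale of log2(RPKM + 1), C3 rose by 2.5 ± 0.15 (SE; adjusted p = 1.21e-05) in old GSH-high and by 3.18 ± 0.15 (adjusted p = 1.80e-06) in old GSH-low relative to young. As a ratio of mean RPKM these are 6.83-fold and 11.2-fold, and the 2 comparisons share the young libraries.

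C4b (chromosome 17, 34728380 to 34743882, minus strand), the component cleaved by C1s, was at 1.25 and 1.69 RPKM in young, 22.4 and 17.6 in old GSH-high, and 21.9 and 14.2 in old GSH-low. Here too no old library came near the young ones, but the old fractions overlapped. The means were 1.47 ± 0.311, 20.0 ± 3.41 and 18.0 ± 5.44 RPKM (SD, n = 2). C4b rose by 3.09 ± 0.19 in old GSH-high (adjusted p = 1.25e-05) and by 2.92 ± 0.19 in old GSH-low (adjusted p = 1.11e-05) on the log2(RPKM + 1) scale, or 13.6-fold and 12.3-fold in mean RPKM. The young values rest on 433 and 566 reads, and the old ones on 3890 to 8841. C4a, a near-identical neighbour on chromosome 17, was not analysed here, and reads that fit both genes cannot be assigned with certainty.

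**Figure D1:**
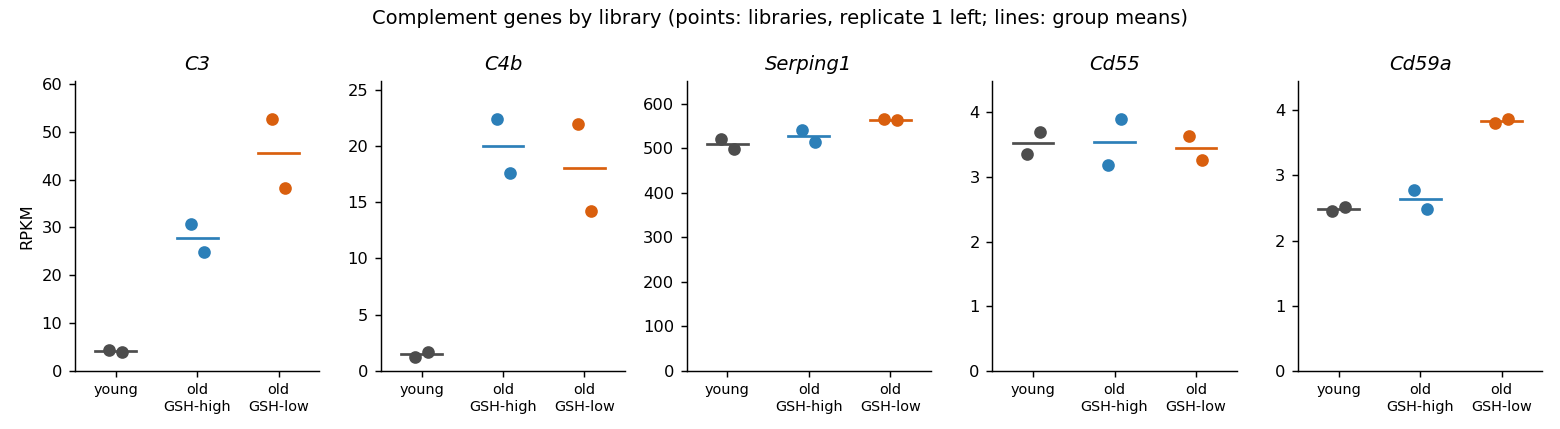
RPKM (vertical axes, starting at 0, a scale for each gene) of the 5 complement genes in the 2 libraries of each group, with points for libraries and lines for group means. C3 and C4b are near the axis in young (means of 4.07 and 1.47 RPKM) and high in both old fractions, Serping1 lies between 498.6 and 566.4 RPKM throughout, and Cd59a stands higher in old GSH-low only.

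Both components were in the upper tail of the age comparisons. Among all genes tested, 99.7% had a lower log2 change than C3 and 99.8% a lower change than C4b in old GSH-high against young, and 99.7% and 99.6% in old GSH-low against young. Of the 5 genes 2 rose in old GSH-high (C3 and C4b), where 28.8% of all tested genes were called and 15.1% rose, and their groups did not overlap, as for 66.1% of all tested genes. In old GSH-low 3 rose (C3, C4b and Cd59a), where 36.8% were called and 18.1% rose. In that comparison the groups of 4 of the 5 genes, Serping1 included, did not overlap, beside 69.1% of all tested genes. These calls held without any single library, with adjusted p up to 0.000155 for C3, 0.000167 for C4b and 0.0334 for Cd59a. Tenocyte markers also rose relative to young: 8 of 9 in old GSH-high and 9 of 9 in old GSH-low. Between the old fractions their median log2 change was 1.96, beside 0.68 for C3 and -0.16 for C4b. FAP markers were mixed, though most rose: 9 of 12 rose and 1 fell in old GSH-high, and 8 rose and 2 fell in old GSH-low. Their median log2 changes relative to young were 0.94 and 0.71. From young through old GSH-high to old GSH-low, Dcn averaged 15.9, 174.3 and 443.3 RPKM. Col3a1 went the other way, averaging 320.1, 115.9 and 95.3 RPKM. Of the macrophage markers, all 5 with values rose in each old fraction. Other lists moved as well. Of 12 endothelial markers, 11 rose in old GSH-high, while 0 rose and 7 fell in old GSH-low. Of 6 Schwann cell markers tested, 4 rose in old GSH-high and 5 in old GSH-low, and 0 fell.

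**Figure D2:**
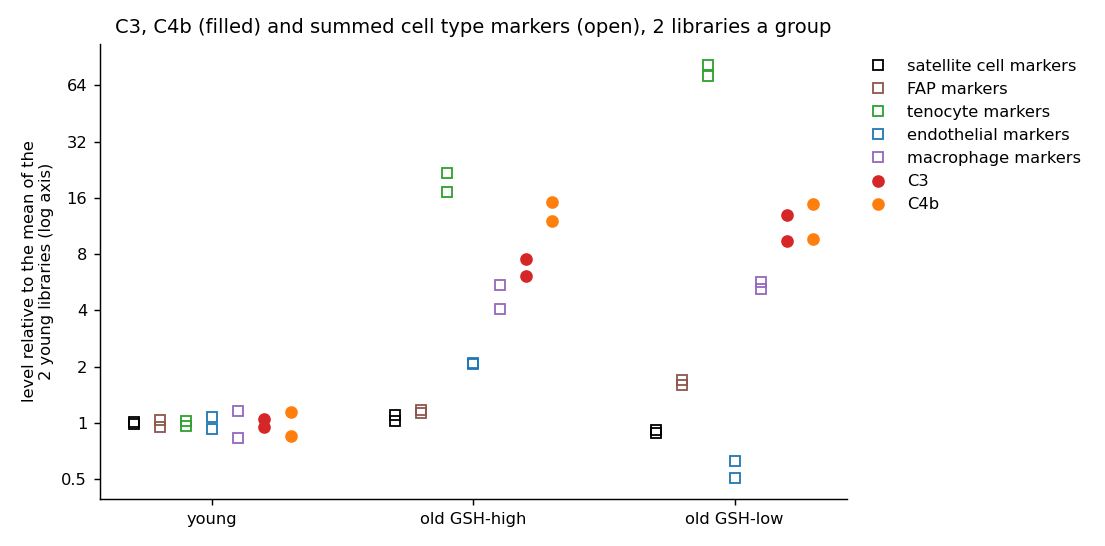
C3 and C4b (filled circles) and the summed RPKM of 5 marker lists (open squares), each divided by its mean over the 2 young libraries, on a log axis, with 1 symbol for each library. The tenocyte sum goes from 36.0 to 38.4 RPKM in young up to 2676 to 3067 in old GSH-low. The satellite cell sum, led by Myod1, lies between 1182 and 1478, though single markers in it moved.

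Serping1 (chromosome 2, 84765387 to 84775444, minus strand) encodes C1 inhibitor, the serpin that traps C1r, C1s and the mannose-binding lectin proteases. It was by far the most abundant of the 5, at rank 60 of 12067 genes by mean RPKM. The libraries gave 521.7 and 498.6 RPKM in young, 541.7 and 515.3 in old GSH-high, and 566.4 and 562.7 in old GSH-low. The young and old GSH-high ranges overlapped, and both GSH-low libraries were slightly above the rest. The log2 change did not pass the test in old GSH-high (0.051, 95% interval -0.15 to 0.25, adjusted p = 0.697) or in old GSH-low (0.15, interval -0.05 to 0.34, adjusted p = 0.221) relative to young, nor between the old fractions (0.095, interval -0.1 to 0.29, adjusted p = 0.614). The old GSH-low against young interval corresponds to 0.964-fold to 1.27-fold. With 62975 to 87132 reads per library, the counting error of a single value was at most 0.398%. The ratio of Serping1 to C1s1 RPKM was 208 and 178 in young, 37.0 and 34.8 in old GSH-high, and 21.4 and 26.2 in old GSH-low, C1s1 being the transcript of one of the proteases that C1 inhibitor traps. As Serping1 changed little, the ratio follows the rise of C1s1 (5.55-fold in old GSH-high and 9.03-fold in old GSH-low). C1ra, the transcript of another of these proteases, rose less (2.42-fold and 2.62-fold), so the size of such a ratio depends on the gene chosen.

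Cd55 (chromosome 1, 130439027 to 130462744, minus strand), decay-accelerating factor, is a lipid-anchored surface protein. Its values were 3.36 and 3.7 RPKM in young, 3.18 and 3.9 in old GSH-high, and 3.64 and 3.26 in old GSH-low. All 3 groups overlapped, and the spread between the old GSH-high libraries was wider than any difference between group means. The log2 changes were -0.00033 in old GSH-high and -0.026 in old GSH-low relative to young, and -0.025 between the old fractions, with 95% intervals of -0.25 to 0.25, -0.28 to 0.22 and -0.28 to 0.22. On the scale of RPKM + 1 these intervals span 0.841-fold to 1.19-fold for old GSH-high against young and 0.826-fold to 1.17-fold for the other 2 comparisons, and at this low level the span in RPKM itself is wider. An antisense gene, Gm16083, overlaps exons of Cd55, and the labels do not say whether counting used strand.

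Cd59a (chromosome 2, 104095801 to 104115354, plus strand), the inhibitor of the membrane attack complex, was at 2.45 and 2.52 RPKM in young, 2.78 and 2.49 in old GSH-high, and 3.81 and 3.87 in old GSH-low. The 2 GSH-low libraries lay close together above all 4 others. The rise in old GSH-low relative to young was 0.47 ± 0.09 on the log2(RPKM + 1) scale (adjusted p = 0.00445), or 1.54-fold in mean RPKM. Old GSH-high had 0.059 ± 0.09 relative to young (95% interval -0.15 to 0.27, adjusted p = 0.667). The values rest on 268 to 354 reads, with a counting error of 5.31% to 6.11%. Its tandem neighbour Cd59b, a close paralog, was at 1.23 and 1.13 RPKM in young, 0.667 and 0.758 in old GSH-high and 0.884 and 1.25 in old GSH-low, and passed the test in no comparison. Its change in old GSH-high relative to young (-0.35 ± 0.11, adjusted p = 0.0523) lay next to the threshold, and passed with no filter (0.0464), on the 4 libraries alone (0.043) and on leaving out replicate 2 of old GSH-low (0.0485). The paralogs can share reads, so the split between them is uncertain.

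The old fractions were then compared with each other, at one age. C3 was higher in old GSH-low by 0.68 ± 0.15 (1.64-fold, 95% interval 0.33 to 1.03, adjusted p = 0.039), and Cd59a by 0.41 ± 0.09 (1.46-fold, interval 0.2 to 0.62, adjusted p = 0.0351). These 2 of 5 genes stand against 5.38% of all tested genes called and 3.69% that rose. C4b had -0.16 ± 0.19 (interval -0.6 to 0.27, adjusted p = 0.706). The groups of 3 of the 5 genes, Serping1 the third, did not overlap, beside 55.5% of all tested genes. The C3 call was lost on leaving out replicate 2 of old GSH-high (adjusted p = 0.262) or replicate 1 of old GSH-low (0.242), where the change was 0.53 and 0.45. The Cd59a call ended with limma-voom on the recovered reads (adjusted p = 0.105) and on leaving out replicate 1 (0.111) or 2 (0.286) of old GSH-high or replicate 1 (0.199) or 2 (0.23) of old GSH-low. In this comparison 9 of 9 tenocyte markers rose, with a median log2 change of 1.96, and 3 of 12 FAP markers rose and 2 fell. Other lists moved too: 11 of 12 endothelial markers fell (median -1.37), and 4 of 7 pericyte markers tested rose. All 3 lymphocyte and all 4 myofibre markers tested rose, and all 3 fat cell markers tested fell. Of the 5 macrophage markers tested, 1 rose and 0 fell. Some of these low markers passed the filter through the group where they are high.

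**Figure D3:**
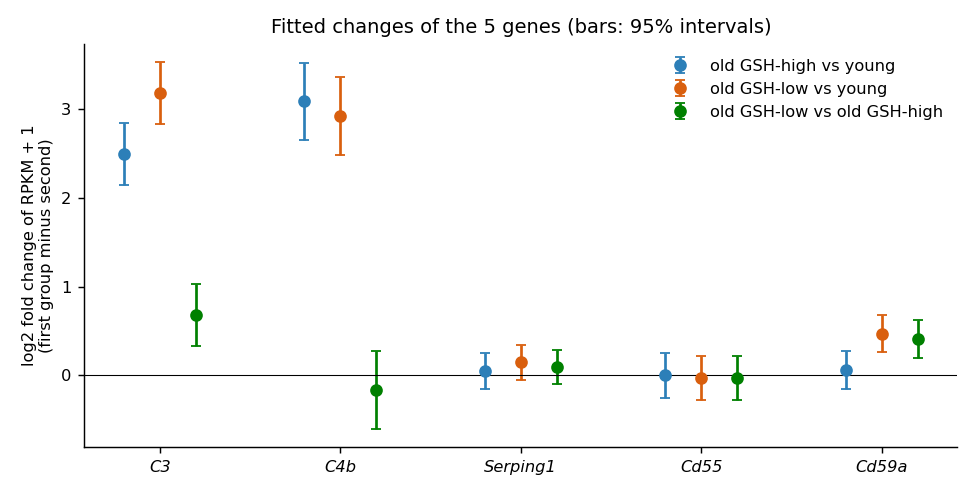
Log2 fold change of RPKM + 1 (points) with 95% intervals (bars) for each gene in the 3 comparisons, the first group minus the second. The intervals of C3 and C4b in the age comparisons lie above 2, those of Serping1 and Cd55 include 0 in all 3, and those of Cd59a exclude 0 where old GSH-low is compared.

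C3 and C4b differed in how they stood to each other within a library. The ratio of C3 to C4b RPKM was 3.41 and 2.29 in young, 1.37 and 1.41 in old GSH-high, and 2.41 and 2.7 in old GSH-low. Old GSH-high was thus below both other groups, and young and old GSH-low overlapped. An exact two-sided permutation test of the log2 ratio between the old fractions (difference 0.87, n = 2 each) gave p = 0.333, the smallest that 2 libraries against 2 can give. In both old fractions replicate 1 was higher than replicate 2 for C3 and for C4b.

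By level, C3 ran from young through old GSH-high to old GSH-low, and each neighbouring pair passed the test. For C4b the order was young, old GSH-low, old GSH-high, and only the last pair did not pass the test. Cd59a ran from young through old GSH-high to old GSH-low, and the pair of young and old GSH-high did not pass the test. For Serping1 (young, old GSH-high, old GSH-low) and Cd55 (old GSH-low, young, old GSH-high) no neighbouring pair passed.

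The sequences before the start sites are shown for C3, which changed most of the genes found in the promoter table, for Cd59a, which rose in old GSH-low, and for Cd55, which did not pass in any comparison. RefSeq promoters on GRCm38.p6 were found for these 3 of the 5 genes. Each line gives the 250 bases before the annotated start, 5′ to 3′ on the gene's strand, at chr17:57228137-57228386 (minus), chr2:104095551-104095800 (plus) and chr1:130462745-130462994 (minus), and capitals mark matches to a searched motif.
C3: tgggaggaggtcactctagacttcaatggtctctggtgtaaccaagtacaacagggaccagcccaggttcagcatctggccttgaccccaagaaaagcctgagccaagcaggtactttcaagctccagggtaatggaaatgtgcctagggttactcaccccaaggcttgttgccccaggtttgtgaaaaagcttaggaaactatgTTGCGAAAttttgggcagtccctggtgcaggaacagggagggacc
Cd59a: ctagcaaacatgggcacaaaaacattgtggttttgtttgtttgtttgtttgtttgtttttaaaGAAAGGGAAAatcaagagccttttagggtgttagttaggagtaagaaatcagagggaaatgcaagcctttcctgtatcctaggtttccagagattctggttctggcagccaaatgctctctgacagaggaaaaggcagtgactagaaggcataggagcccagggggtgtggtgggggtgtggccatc
Cd55: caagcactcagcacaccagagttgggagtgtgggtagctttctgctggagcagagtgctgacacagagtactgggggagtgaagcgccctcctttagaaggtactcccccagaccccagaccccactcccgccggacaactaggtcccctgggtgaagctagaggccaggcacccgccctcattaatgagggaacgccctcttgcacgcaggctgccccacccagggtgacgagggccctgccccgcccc

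Both strands were searched for motifs of factors of inflammatory signalling: GAS (TTCNNNGAA), ISRE (GAAA, 2 bases of any kind, GAAA), AP-1 (TGANTCA), C/EBP (TTGCNNAA) and NF-kappa B (its consensus). C3 held a C/EBP match from 45 to 38 bases before the start, and 9.56% of 32851 promoters of the same length held that motif. Cd59a held an ISRE match from 187 to 178 bases before the start, against 2.98% of all promoters. No other match was found in these windows, where GAS was held by 7.02%, AP-1 by 6.75% and NF-kappa B by 7.25% of all promoters. These matches describe letters and were not tied to any measured binding.

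The wider pathway was read from a list of 55 complement genes in 5 roles, of which 27 had values, the other 28 were not analysed here, and 24 passed the filter of 1 RPKM in at least 2 libraries. Of these 24, 9 were under 1 RPKM in both young libraries and passed through the old ones, so that counts against young are descriptions only. In old GSH-high 14 of 24 rose and 1 fell relative to young, where 15.1% of all tested genes rose and 13.7% fell, with a median log2 change of 0.42 beside -0.0037 over all genes. In old GSH-low 16 rose and 3 fell, where 18.1% rose and 18.7% fell, with a median of 0.52 beside -0.021. These counts include the 5 members. Without them, 12 of 19 rose and 1 fell in old GSH-high, and 13 of 19 rose and 3 fell in old GSH-low. Of the 15 of the 24 genes that were not so low in young, 7 rose and 1 fell in old GSH-high, and 8 rose and 2 fell in old GSH-low. The number of the 24 genes past the test in old GSH-low against young, 19, was 11 on leaving out replicate 1 of old GSH-low. Among the 9 genes of the classical and lectin routes 7 rose in old GSH-high and 9 in old GSH-low, and 5 of them (C1qa, C1qb, C1qc, C1rl and Colec11) were under 1 RPKM in both young libraries. Among the 8 regulators, none of which was that low in young, 3 rose and 1 fell in each old fraction, beside 28.8% and 36.8% of all tested genes called. The difference between the roles was not tested.

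At the start of the classical route C1s1 and C1ra rose with C4b. C1s1 (the protease that cleaves C4) was at 2.5 and 2.8 RPKM in young, 14.6 and 14.8 in old GSH-high, and 26.4 and 21.5 in old GSH-low, with log2 changes of 2.11 ± 0.11 (adjusted p = 4.48e-06) and 2.77 ± 0.11 (adjusted p = 6.63e-07) relative to young. C1ra (the protease that activates C1s) averaged 12.8 ± 0.209, 31.0 ± 2.81 and 33.4 ± 0.648 RPKM (SD, n = 2) and rose in both old fractions (adjusted p = 3.25e-05 and 1.22e-05). Their near-identical copies C1s2 and C1rb were not analysed here, and Gm16567 overlaps C1s1 on the other strand. The C1q chains, which macrophages are known to make, were near 0 in young: C1qa was at 0.111 and 0.115 RPKM (7 and 7 reads), against 1.74 and 1.71 in old GSH-high and 1.05 and 1.04 in old GSH-low. C1qa, C1qb and C1qc rose in both old fractions beside the 5 macrophage markers. Between the old fractions C1qa fell and C1qb and C1qc did not pass, while 1 of the 5 macrophage markers rose and 0 fell. The C1qc call in old GSH-low against young was lost on leaving out replicate 1 of old GSH-low, where the log2 change was 0.54. C1rl, a C1r-like protease, rose in both, and in old GSH-high the call was lost on leaving out replicate 1 (0.0835) or 2 (0.062) of that group. Of the collectins, soluble and membrane lectins that recognise sugars, Colec11 rose in old GSH-low (2.38 and 1.95 RPKM against 0.254 and 0.451 in young, adjusted p = 0.000163). The added 1 shrinks the changes of these low genes: with limma-voom the change relative to young was 3.84 for C1qa in old GSH-high, against 1.29, and 2.66 for Colec11 in old GSH-low, against 1.23. Colec12 averaged 13.3 ± 1.61, 15.5 ± 1.52 and 18.1 ± 1.35 RPKM and rose in old GSH-low (adjusted p = 0.0178), a call lost on leaving out replicate 1 of young (0.071) or of old GSH-low (0.128).

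In the amplification and terminal steps, Cfd (factor D, made by fat cells) set the old fractions apart. It had 0 and 4 reads in young (0 reads allows up to 3, and the deposited value stands in for the 0), 59.7 and 41.9 RPKM in old GSH-high and 1.39 and 0.834 in old GSH-low. Of 7 fat cell markers 4 had values, Cfd among them, and Cfd makes up most of their sum in old GSH-high. Of the other 3, Adipoq averaged 0.0647, 1.86 and 0.68 RPKM and Cidec 0.0199, 5.96 and 0.12 RPKM, in the order used above. Car3 averaged 0.245, 0.804 and 0.861 RPKM without the gap that Cfd shows between the old fractions. The part of fat cells in the Cfd values was not tested. Cfp (properdin, which stabilises the alternative convertase) averaged 0.769 ± 0.173, 0.986 ± 0.0404 and 1.34 ± 0.192 RPKM. It rose in old GSH-low relative to young (adjusted p = 0.0233), and that call was lost on leaving out replicate 2 of young (0.0989) or replicate 1 (0.0511) or 2 (0.14) of old GSH-low. C7, a part of the membrane pore, was at 0.246 and 0.394 RPKM in young, 9.67 and 8.71 in old GSH-high, and 14.5 and 10.7 in old GSH-low. Its log2 changes were 2.95 ± 0.14 (adjusted p = 3.44e-06) and 3.35 ± 0.14 (adjusted p = 8.87e-07) relative to young, against 4.87 and 5.31 with limma-voom. C8g, a chain of the pore's C8 subunit, passed in no comparison.

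The other regulators did not move as a block. Clu (clusterin, a chaperone that also binds the terminal complex) went from 115.8 and 93.3 RPKM in young to 37.1 and 35.5 in old GSH-high and 44.8 and 39.4 in old GSH-low, and fell by 1.49 ± 0.12 (adjusted p = 4.32e-05) and 1.29 ± 0.12 (adjusted p = 6.78e-05) on the log2 scale. Vtn (vitronectin, which also binds the terminal complex) averaged 43.2 ± 5.0, 58.4 ± 2.59 and 54.9 ± 3.6 RPKM and rose in both (adjusted p = 0.0138 and 0.0282). The call in old GSH-high was lost on leaving out replicate 1 (0.057) or 2 (0.0963) of that group, and the call in old GSH-low on leaving out replicate 2 of young (0.0829) or replicate 1 (0.0698) or 2 (0.165) of old GSH-low. Cr1l (Crry, a rodent inhibitor of the C3 convertases) averaged 4.89 ± 0.284, 6.51 ± 0.438 and 5.72 ± 0.0443 RPKM and rose in old GSH-high (adjusted p = 0.0204), a call lost on leaving out replicate 1 of young (0.0671) or replicate 1 (0.168) or 2 (0.0548) of old GSH-high. Among the receptors, Cd93, an endothelial and myeloid surface protein, averaged 0.612 ± 0.176, 1.65 ± 0.248 and 0.236 ± 0.132 RPKM, beside the endothelial marker sums given above. It rose in old GSH-high (adjusted p = 0.00403), and its fall in old GSH-low relative to young (adjusted p = 0.0472) was lost on leaving out replicate 2 of young (0.195) or replicate 1 (0.0667) or 2 (0.237) of old GSH-low, and with median-of-ratios scaling (0.0509) or library size only (0.0599). C1qbp, a mitochondrial protein also known to bind C1q, averaged 80.3 ± 10.8, 77.6 ± 0.216 and 64.7 ± 1.1 RPKM. Its fall in old GSH-low relative to young (adjusted p = 0.0461) was lost on leaving out any 1 library other than replicate 2 of young (adjusted p from 0.0821 to 0.198), on the 4 libraries alone (0.0813), and with median-of-ratios scaling (0.0557) or library size only (0.0963).

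**Figure D4:**
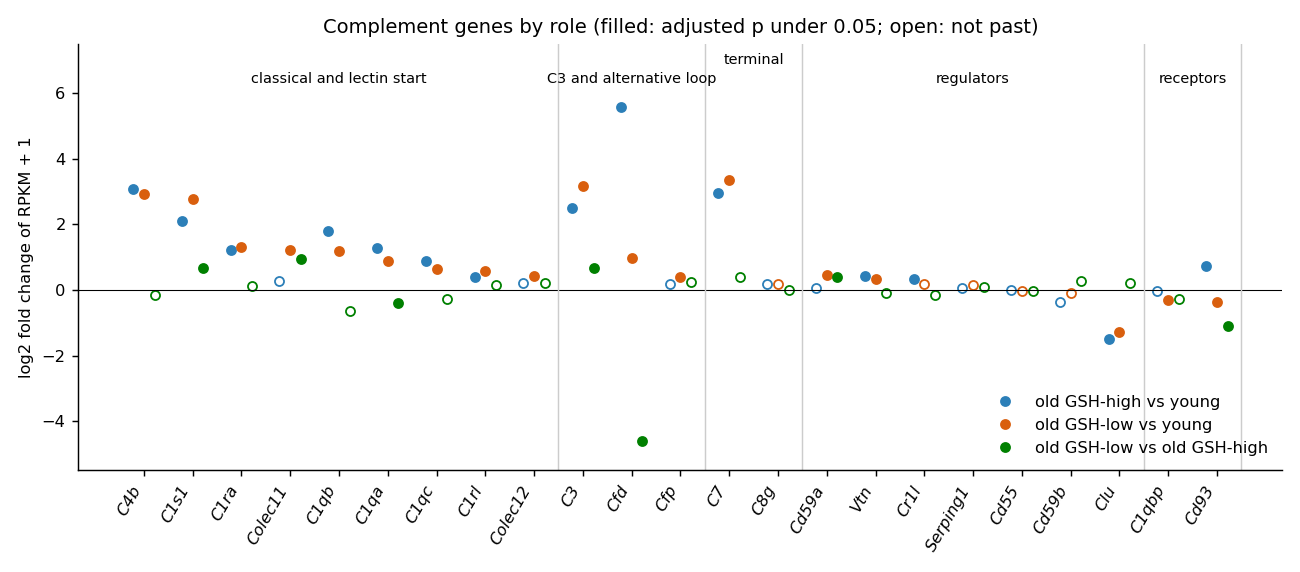
Log2 fold change of RPKM + 1 for the tested complement genes, grouped by role and with 1 regulator not shown, in the 3 comparisons, with filled symbols for adjusted p under 0.05 and open symbols for genes not past the test. C4b, C1s1, C3 and C7 are up in both old fractions, Clu is down in both, and Cfd departs furthest between the fractions.

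Between the old fractions 7 of the 24 complement genes passed, where 5.38% of all tested genes were called, 3.69% rose and 1.69% fell: C3, C1s1, Colec11 and Cd59a rose in old GSH-low, and Cfd, Cd93 and C1qa fell. Colec11 reached 1 RPKM only in old GSH-low and Cd93 only in old GSH-high. Cfd reached it in both old GSH-high libraries and otherwise only in replicate 1 of old GSH-low (1.39 RPKM). Each of these genes thus passed the filter through the group where it is high, and the count of 7 is a description. C1s1 rose by 0.66 ± 0.11 (adjusted p = 0.00804), Colec11 by 0.96 ± 0.13 (adjusted p = 0.0027), and Cfd and Cd93 fell by 4.61 ± 0.17 (adjusted p = 5.50e-06) and 1.1 ± 0.13 (adjusted p = 0.00136). The C1s1 call was lost on leaving out replicate 1 (0.0557) or 2 (0.057) of old GSH-high or replicate 1 of old GSH-low (0.0817). The C1qa call (-0.41 ± 0.09, adjusted p = 0.0406) was lost on leaving out any 1 of the 4 old libraries (0.216 to 0.233), with a pseudocount of 0.1 (0.134) and with limma-voom (0.163). The count of 7 was 4 on leaving out replicate 1 of old GSH-high or replicate 2 of old GSH-low, and 2 on leaving out replicate 2 of old GSH-high or replicate 1 of old GSH-low. With the 5 members set aside, 2 of 19 genes rose and 3 fell. C1qb (-0.63 ± 0.21, adjusted p = 0.144) was called only on leaving out replicate 1 of old GSH-high (0.016) and in a fit with the replicate number as a block. C1qbp (-0.26 ± 0.1, adjusted p = 0.211) was called on the 4 old libraries alone (0.0478) and on leaving out either young library.

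The genes closest to each of the 5 in their pattern over the 6 libraries were ranked by Pearson correlation of log2(RPKM + 1) among 10317 tested genes with standard names. For C3 they were Scn7a (0.9997), Lepr (0.9988) and Mkx (0.9987), the last of them on the tenocyte list. For C4b they included Ablim1 (0.9995) and Dlg1 (0.9982). Serping1 was closest to Tbx3 (0.9987), Phf20l1 (0.9938) and Fam98c (0.9903). The closest to Cd59a included Fam193b (0.9967) and Rab3il1 (0.9953), and the closest to Cd55 were Sema6d (0.9731) and Furin (0.968). Over 6 libraries that split into young and old such values are common: 631 genes had a correlation over 0.95 with C3, 578 with C4b, 154 with Cd59a, 64 with Serping1 and 3 with Cd55. Among the 5 genes the correlation was 0.97 for C3 and C4b and 0.91 for Serping1 and Cd59a, and that of Cd55 with the other 4 ran from -0.46 to -0.05.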

How the data were processed

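The members and gene lists were chosen with earlier results of these data known. The authors' deposited table gives RPKM, and the submitters' processing notes name Trim Galore, STAR, featureCounts (Subread) and edgeR with mm10 (GRCm38), with no versions or strand setting. With GENCODE M21 exon lengths, or for 261 genes another whole length, all 12067 genes gave whole reads within 0.02 reads plus a relative 3e-07; 230 values at 0.5 times a gene's lowest other value were read as 0. Genes with at least 1 RPKM in 2 or more libraries (10609) were fitted as log2(RPKM + 1) with limma-trend (limma 3.58.1, R 4.3.3), a means model of 3 groups, 3 residual degrees of freedom, two-sided, Benjamini-Hochberg adjusted over all genes, threshold 0.05. The added 1 shrinks changes of low genes. With 2 libraries a group, p-values measure the spread between these libraries, drawn for each gene toward a trend over all genes tested. Intervals on reads cover counting error only. Named genes were the 5 members, complement genes past the test or averaging at least 10 RPKM, and the 3 most correlated genes per member; C8g, Cd59b and Cfd's read counts were added after their values were seen. Some genes that this rule names are not reported here. The fit and the read recovery were run on simulated data. Those for the fit gave every gene the same set spread between libraries, so they do not measure its error rates in these data. Alternatives were other scalings, no filter, a pseudocount of 0.1, limma-voom, a fit on only the 4 libraries compared, a block for replicate number, and leaving out each library. Figures used Python 3.11.15 and matplotlib 3.10.9.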

Additional observations from a re-analysis of the deposited data

How the results depend on the processing

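Of 195 alternative values of the 5 genes, 176 kept their direction and their side of the threshold. The age calls of C3 and C4b and the Cd59a call in old GSH-low against young held under all 13 alternatives. Leaving out 1 library gave log2 changes of 2.35 to 2.65 (C3, old GSH-high against young), 2.92 to 3.25 (C4b), 2.95 to 3.41 (C3, old GSH-low against young), 2.63 to 3.22 (C4b) and 0.46 to 0.49 (Cd59a). Between the old fractions it gave 0.45 to 0.91 for C3, 0.36 to 0.47 for Cd59a, -0.46 to 0.13 for C4b and -0.14 to 0.09 for Cd55, and the last 2 turned in sign with no call. Cd55 also ran from -0.12 to 0.12 (old GSH-high against young) and from -0.087 to 0.036 (old GSH-low against young) without 1 library, and was 0.0034 with median-of-ratios scaling and 0.047 and 0.028 with library size only. The Cd59a change between the old fractions was 0.54 with limma-voom and missed the threshold (adjusted p = 0.105); the cause was not tested. With the replicate number as a block it was 0.41 (adjusted p = 0.0761). The numbers were not taken to pair the samples, as the labels give no pairing. Deviations of replicate 1 from its group mean correlated at 0.0695 between the old fractions. Those of young with old GSH-high (-0.142) and old GSH-low (-0.263) cannot speak to pairing, as these groups share no animals. For C3 between the old fractions the block gave 0.68 ± 0.11 (adjusted p = 0.00986). The block changed no other call of the 5 genes, but among the other complement genes it ended the calls of C1qa between the old fractions (adjusted p = 0.0756) and of Vtn (0.0541), Cd93 (0.0636) and C1qbp (0.0708) in old GSH-low against young, and added C1qb between the old fractions (0.0471). Complement genes past the test numbered 2 to 8 between the old fractions without 1 library (7 in all), 10 to 15 in old GSH-high against young (15) and 11 to 17 in old GSH-low against young (19). The Cd59a values rest on 2 libraries a group and 268 to 354 reads, and the smallest change that these data can resolve was not tested.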

Other observations

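Markers of cell types outside the comparisons of complement genes were also summed. Of 7 lymphocyte markers 5 had values, with sums of 1.01 to 1.03 RPKM in young, 1.97 to 2.2 in old GSH-high and 13.4 to 16.2 in old GSH-low. Of 8 myofibre markers 7 had values, with sums of 18.5 to 19.1, 15.6 to 16.8 and 39.7 RPKM in the same order. The 8 pericyte markers summed to 185.9 to 194.6, 137.3 to 159.5 and 154.9 to 158.3 RPKM, a sum dominated in young by Acta2 (means of 133.1, 67.2 and 63.7 RPKM). Of the 7 pericyte markers tested, 5 rose and 1 fell in old GSH-high relative to young, and 4 rose and 1 fell in old GSH-low, with median log2 changes of 0.92 and 0.79. Among them Rgs5 averaged 3.83, 8.16 and 14.7 RPKM and Pdgfrb 1.63, 5.59 and 12.8 RPKM. The 8 Schwann cell markers summed to 9.08 to 9.99, 19.4 to 20.3 and 16.9 to 23.3 RPKM. The part of these cells in the levels of the complement genes was not tested.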
